A study of Rattus norvegicus with 27 samples.

Results

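The 100 most abundant long non-coding RNAs (lncRNAs) of small extracellular vesicles (EVs) released by cultured rat Schwann cells were examined. They were chosen by their measured read counts summed over 9 EV libraries, as the first 100 of 7241 rows in the lncRNA table. Their levels therefore come from the choice itself and are given as a description, while differences between culture stages and the level of the same names in the cells were not used to choose them. The smallest sum inside the list was 70 counts and was shared by 6 rows, of which 3 fell inside. LOC108350745 and LOC102548387 closed the list with 70 counts each, and LOC108352628 and LOC103694317 stood just outside it, also with 70.

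Primary rat Schwann cells, the glia that ensheathe peripheral axons, were bought from a supplier and used at low passage. Undifferentiated cells were kept without dibutyryl cyclic AMP (dbcAMP, a cell-permeable cyclic AMP analogue). For the differentiated stage, 1 mM dbcAMP was given over 72 h in DMEM with 1% exosome-depleted serum. Dedifferentiated cells had the same treatment and then 72 h without dbcAMP in a complete medium with 10% exosome-depleted serum, forskolin and neuregulin. Stage, serum and growth factors thus changed together and cannot be told apart, and the last medium of the undifferentiated cells is not stated. Each stage had 3 biological replicates for EV lncRNA, EV microRNA (miRNA) and cell mRNA, but the labels do not say whether these came from separate animals.

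A lncRNA is a transcript longer than a small RNA that encodes no known protein. Many act in the nucleus by binding chromatin or splicing factors, others in the cytoplasm by binding mRNAs, ribosomal proteins or miRNAs. EVs are membrane particles that carry RNA, often as fragments, out of the cell, and Schwann cell EVs are known to reach axons and neighbouring cells. The best studied lncRNA in the list is Bc1, a short rodent RNA made by RNA polymerase III that restrains translation near synapses. It arose from a transfer RNA gene and gave rise to the ID family of rodent repeats.

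Sequences are shown for the members on which the results turn: Bc1, whose counts did not follow library size, and the pair that leads the list. Each run, from RefSeq's GRCr8 windows on the + strand, holds 50 bases before the annotated start and 50 from it. Capitals in Bc1 mark an A-box-like motif of the kind that RNA polymerase III genes carry inside the transcript, and in the other members the first 50 transcribed bases.
Bc1: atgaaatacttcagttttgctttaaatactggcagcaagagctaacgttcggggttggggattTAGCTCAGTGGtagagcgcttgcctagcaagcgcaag
LOC102556873: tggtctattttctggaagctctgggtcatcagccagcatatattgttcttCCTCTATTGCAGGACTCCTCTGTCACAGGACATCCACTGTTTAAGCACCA
LOC102546709: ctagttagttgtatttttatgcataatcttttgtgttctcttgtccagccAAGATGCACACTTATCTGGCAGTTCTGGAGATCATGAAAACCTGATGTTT
These lie at chr1:209502847-209502946, chr1:61251885-61251984 and chr1:63197744-63197843. The Bc1 motif TAGCTCAGTGG begins at base 14 of the transcript. On either strand it occurred in 224 of 33469 RefSeq windows (0.669%) and in 2 of the 44 windows that could be found for the 100 lncRNAs. The first 50 bases of Bc1 as a whole occurred in 12 windows (0.0359%), its own among them. Reads from this end of Bc1 can thus match other places, and its counts are uncertain. These windows cover only a part of the genome, so the extent of that uncertainty was not measured. The windows of the pair that leads the list shared no run longer than 8 bases.

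Counts over the lncRNA rows were low. For EV lncRNA, depth and library size mean the total over lncRNA rows and not all reads of a library. Totals over all lncRNA rows were 2614, 13000 and 14222 counts in undifferentiated, 7811, 16240 and 36563 in differentiated and 4734, 8601 and 7556 in dedifferentiated EVs (replicates 1, 2 and 3 in this order, here and throughout), a 14.0-fold range. The deepest library held 32.8% of all 111341 counts and so weighed most in the ranking. Ranking by the mean share over libraries kept 87 of the 100. A count of 0 allows a share of up to 0.115% in the shallowest and 0.00821% in the deepest library (3 counts, counting error only).

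Counts were spread thinly over the list. The 100 lncRNAs are 1.38% of the rows and held 11385 counts, or 10.2% of the total. Their sums fell from 1029 to 70 with a median of 89.5. Only 4 exceeded 200 counts, and 36 reached 100. The share held by all 100 was 10.1%, 10.3% and 10.1% in undifferentiated, 10.4%, 10.4% and 10.3% in differentiated and 10.2%, 10.0% and 9.87% in dedifferentiated EVs. No library was dominated by a few lncRNAs: between 488 and 1196 rows were needed to reach 50% of a library's counts. The plot of cumulative share by rank shows these libraries as nearly parallel lines.

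**Figure D1:**
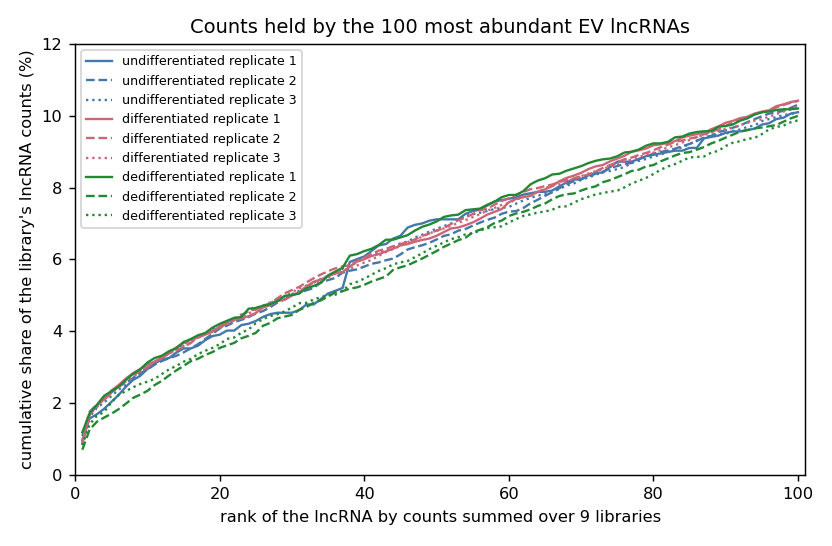
Cumulative share of each EV library's lncRNA counts (%) against the rank of the 100 lncRNAs by counts summed over 9 libraries, 1 line per library, coloured by stage. The lines end between 9.87% and 10.4%, and the step near rank 38 in undifferentiated replicate 1 is Bc1.

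The 10 highest lncRNAs held 2.95%, 2.93% and 2.99% of counts in undifferentiated, 3.07%, 2.99% and 3.04% in differentiated and 3.13%, 2.34% and 2.59% in dedifferentiated EVs. The dedifferentiated EVs gave both the highest and the lowest value. Stage accounted for 37.9% of the sum of squares (two-sided exact permutation p = 0.218 over 280 assignments, 0.871 after Benjamini-Hochberg adjustment over 4 such measures). Without dedifferentiated replicate 1 it accounted for 91.9% (exact permutation p = 0.00357), so this value turns on 1 library. Drawn down to 2614 counts, the libraries were expected to show 1735, 1877 and 1871, then 1856, 1875 and 1894, then 1815, 1865 and 1851 lncRNAs. The lowest of these, undifferentiated replicate 1, is the shallowest library itself, and stage was not resolved (exact permutation p = 0.607, and 0.168 without that library). All 100 lncRNAs were detected in 7 libraries, 84 in undifferentiated replicate 1 and 95 in dedifferentiated replicate 1, and 79 were detected in all 9.

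LOC102556873, an uncharacterised lncRNA, led every library. Its counts were 25, 140 and 122 in undifferentiated, 68, 147 and 349 in differentiated and 56, 60 and 62 in dedifferentiated EVs. As a share this was 0.956%, 1.08% and 0.858%, then 0.871%, 0.905% and 0.955%, then 1.18%, 0.698% and 0.821%. The stages overlapped, and stage accounted for 4.31% of the sum of squares (exact permutation p = 0.882). That part turned on single libraries too, reaching 59.5% (exact permutation p = 0.0857) without dedifferentiated replicate 1 and 0.108% without undifferentiated replicate 2. The share kept within a 1.70-fold range while totals varied 14.0-fold.

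LOC102546709, also uncharacterised, came next with 16, 88 and 108 counts in undifferentiated, 63, 124 and 270 in differentiated and 25, 48 and 44 in dedifferentiated EVs. Its share averaged 0.683% ± 0.0738, 0.770% ± 0.0344 and 0.556% ± 0.0272 (SD, n = 3 each). Every dedifferentiated library (0.528% to 0.582%) lay below every library of the other stages, the lowest of which was 0.612%. The log2 change from differentiated to dedifferentiated was -0.29 (SE 0.12), with an unadjusted p of 0.0482 and an adjusted p of 0.612 in edgeR's quasi-likelihood test, and so it was not called. Over 15 alternative settings its log2 change ranged from -1.02 to -0.29 and its adjusted p from 0.0757 to 0.949.

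The leading pair stands in a dense stretch of the deposited table. In its order, 6 consecutive rows held LOC102556502 (178 counts), LOC103690993 (113), LOC102546375 (207), LOC108349807 (3), LOC102546709 (786) and LOC102556873 (1029), and the rows on either side had 1 and 5 counts. This stretch held 2.03%, 2.24% and 2.07% of counts in undifferentiated, 2.07%, 2.14% and 2.16% in differentiated and 2.24%, 1.58% and 1.80% in dedifferentiated EVs. RefSeq places the leading pair and LOC102546375 on chromosome 1, and the other 3 rows had no RefSeq match here. LOC102546375 carries the gene ID that GRCr8 lists as Zfp160l, a protein-coding zinc finger gene. The GRCr8 windows of the leading pair begin at chr1:61251885 (LOC102556873) and chr1:63197744 (LOC102546709). Neighbours in this order thus lie far apart on the chromosome. Whether any of these rows share a transcribed region was not tested.

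Ranks 3 to 10 ran from 241 to 146 counts. LOC108350702 had 241 and shares from 0.115% to 0.265%. LOC102546375 had 207, with its highest shares in differentiated replicate 3 (0.246%) and dedifferentiated replicate 1 (0.253%). Then came LOC102554740 with 200, LOC102556502 with 178, LOC102550967 with 171, LOC108351605 with 158, LOC102552061 with 149 and LOC102546824 with 146. These 8 are known by identifier alone apart from Zfp160l. Counts are not divided by transcript length, so the order is one of reads and not of molecules. In the plot of shares by library the stages overlap at each of these 8 names.

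**Figure D2:**
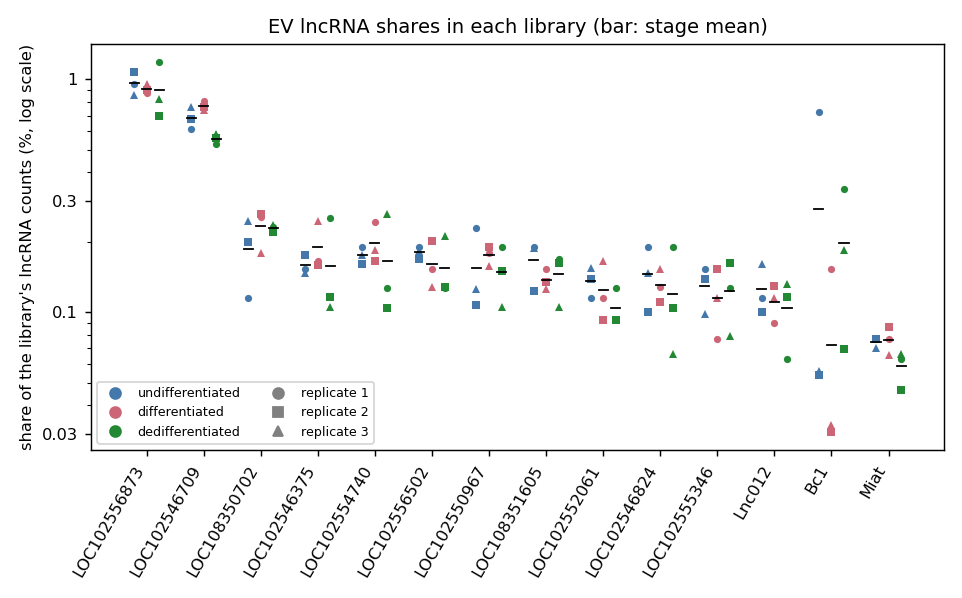
Share of each library's lncRNA counts (%, log scale) for the 12 highest lncRNAs, Bc1 and Miat, 1 point per library, coloured by stage and shaped by replicate, with a bar at the stage mean. Most names span a narrow band, LOC102546709 is lowest in the 3 dedifferentiated libraries, and Bc1 spans 0.0308% to 0.727%.

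Most of the 100 are names without a known function. Of them 96 have LOC identifiers, the other 4 being Lnc012, Bc1, RGD1561251 and Miat. RefSeq's GRCr8 gene table matched 56, 51 by symbol and 5 by gene ID, and lists 50 of these as lncRNA, 5 as protein-coding and 1 as a pseudogene (LOC102549342). The protein-coding entries are LOC102546375 (Zfp160l), LOC108351734 (C2cd4b), LOC108349468 (1700020N01Rikl), LOC103690742 (Spetex2gl1) and LOC108351184. For these 5, reads counted as lncRNA are counted at a gene that a later annotation calls coding. With 56 of 100 matched, a check on gene length or base composition would be void and was not made.

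Of 81 symbols on lists of nuclear, cytoplasmic, host-gene, imprinted and neural lncRNAs, 17 had a row in the EV table and 3 of these 17 were among the 100, where 1.38% of all rows stand. They were Mir9-3hg (as LOC102555346), Bc1 and Miat. Outside the 100 stood Oip5-as1 (as LOC100910827) with 49 counts, Xist (as LOC100911498) with 48, Pvt1 with 40, H19 with 31, Fendrr with 26 and Crnde with 21. The other 8 had 0 to 15 counts, among them Gas5 with 10 and Tug1 with 7.

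Bc1 ranked 38 by summed counts and 4 by mean share. It had 19, 7 and 8 counts in undifferentiated, 12, 5 and 12 in differentiated and 16, 6 and 14 in dedifferentiated EVs. Its share was 0.727%, 0.0538% and 0.0563%, then 0.154%, 0.0308% and 0.0328%, then 0.338%, 0.0698% and 0.185%. Within each stage replicate 1 had the highest share, and the stages overlapped. The exact 95% Clopper-Pearson interval was 0.438% to 1.13% in the highest library and 0.009998% to 0.0718% in the lowest, so the 23.6-fold range exceeds counting error. Replicate 1 was also the shallowest library of each stage.

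Bc1 counts stayed between 5 and 19 while totals varied 14.0-fold. Over 9 libraries Pearson's r between its counts and the table total was -0.32 (exact permutation p = 0.439, adjusted over 3975 rows 0.464). Spearman's rho was -0.73 (exact permutation p = 0.0313, adjusted 0.0772). Without differentiated replicates 2 and 3, whose totals lie farthest from the median, r was -0.85 (exact permutation p = 0.0175), so the linear value rests on those libraries. Neither adjusted value passed 0.05. By description, the other 99 lncRNAs had r of 0.69 to 1.00 with a median of 0.95, and 85 of them exceeded 0.9. Over the 3975 rows with 10 or more counts the median r was 0.82, 1092 rows exceeded 0.9 and 39 were at or below 0. Without differentiated replicates 2 and 3, r of the other 99 ran from 0.036 to 0.98. The list was ranked by summed counts, in which the deepest library weighed most, so a high r can follow from the choice. These correlations share the library totals, to which each row contributes.

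**Figure D3:**
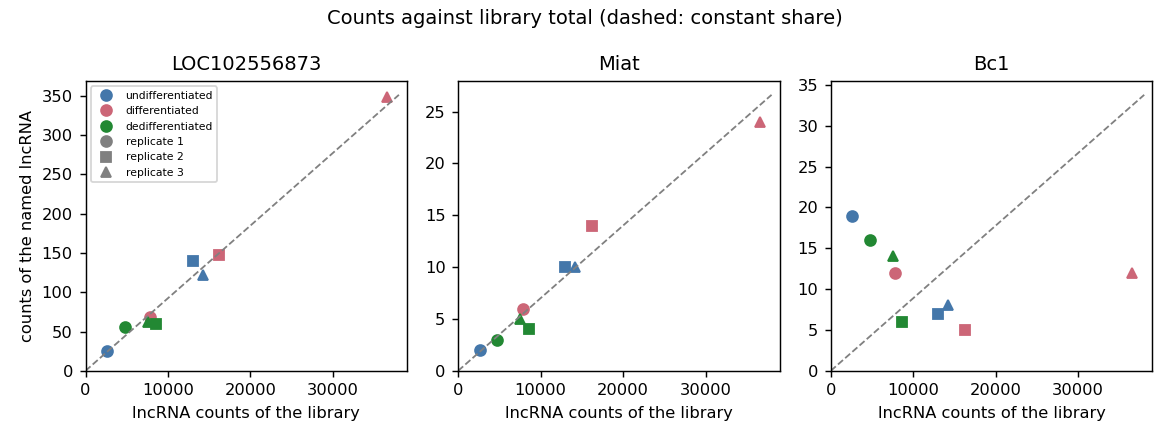
Counts of LOC102556873, Miat and Bc1 (y axis) against the lncRNA counts of each library (x axis), 1 point per EV library, with a dashed line at a constant share. LOC102556873 and Miat lie along the line, and the Bc1 points stay between 5 and 19 counts at every total.

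The spread of each lncRNA was set against that of sampling by a dispersion index, the Pearson chi-square of its counts around a constant share divided by its 8 degrees of freedom, which is near 1 for pure sampling. The median over the 100 was 1.14, against 1.09 over the 3975 rows with 10 or more counts. Bc1 had 23.4, which was the highest of all 3975. The other 99 reached 3.15, at LOC103690083, and the lowest value was 0.198, at Miat. Among lncRNAs with counts in all 9 libraries the coefficient of variation of the share was lowest for LOC102546709 (0.153), LOC102556873 (0.154) and Miat (0.162). It was highest for LOC102548308 (0.739), LOC103690083 (0.950) and Bc1 (1.24). LOC102548308 and LOC103690083 each had their highest share in undifferentiated replicate 1, at 0.230% from 6 counts and 0.268% from 7.

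**Figure D4:**
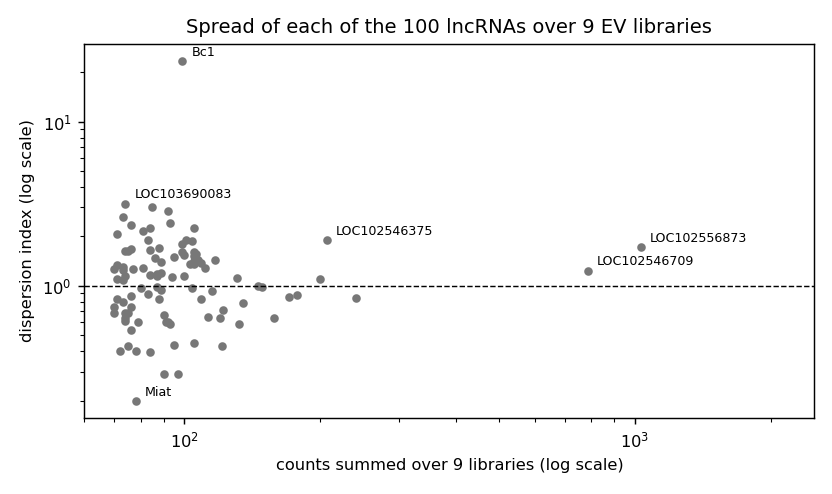
Dispersion index (log scale) against counts summed over 9 EV libraries (log scale), 1 point per lncRNA of the 100, with a dashed line at 1. Bc1 stands apart at 23.4, and the next highest point is LOC103690083 at 3.15.

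Differences between stages were tested in the fit over the whole table. Only 24 of the 7241 rows had enough counts, all 24 of them among the 100, and the other 76 were not tested in this fit. None was called in any of the 3 contrasts in edgeR's quasi-likelihood test (percent called 0%, 0% and 0% of 24). At an unadjusted p under 0.05 there were 0 in differentiated against undifferentiated, 1 in dedifferentiated against differentiated (LOC102546709) and 0 in dedifferentiated against undifferentiated EVs. DESeq2's Wald test likewise called 0 in each. At these depths a true difference may go undetected.

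The smallest p in differentiated against undifferentiated EVs was that of LOC103690993, at -0.53 on the log2 scale (SE 0.29, edgeR adjusted p = 0.916). Next were Bc1 at -1.49 (SE 1.04, adjusted p = 0.916) and LOC102550967 at 0.34 (SE 0.24, adjusted p = 0.916). In dedifferentiated against differentiated EVs LOC102546709 was followed by LOC102547304 at -1.03 (SE 0.51, edgeR adjusted p = 0.612) and Bc1 at 1.88 (SE 1.00, adjusted p = 0.612). LOC102547304 had shares of 0.141%, 0.117% and 0.0930% in differentiated and 0.0422%, 0.0349% and 0.0662% in dedifferentiated EVs, which do not overlap. In dedifferentiated against undifferentiated EVs LOC102548729 had the smallest p, at 1.02 (SE 0.51, edgeR adjusted p = 0.911), ahead of LOC102546709 at -0.23 (SE 0.13) and LOC103690249 at 0.43 (SE 0.27). Without dedifferentiated replicate 2, where its share was 0.198%, the change of LOC102548729 was 0.44. The values of LOC102546709 and LOC103690249 also moved by over 1.5 times with 1 library, from -0.47 to -0.20 and from 0.24 to 0.48. In the contrasts given before, leaving out 1 library gave -1.66 to -0.995 for LOC102547304 and 0.25 to 0.58 for LOC102550967.

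The Bc1 result turned on single libraries in both directions. Without undifferentiated replicate 1, which held its highest share, the log2 change from undifferentiated to differentiated was -0.03 in place of -1.49, and without dedifferentiated replicate 1 that from differentiated to dedifferentiated was 1.18 in place of 1.88. Dedifferentiated against undifferentiated EVs gave 0.39, and from -0.35 to 1.59 over the alternatives. Without differentiated replicate 1, Bc1 was called lower in differentiated than in undifferentiated EVs (log2 change -2.05, edgeR adjusted p = 0.00604) and higher in dedifferentiated than in differentiated EVs (2.31, adjusted p = 0.000371). Without dedifferentiated replicate 2 the latter was 2.15 (adjusted p = 0.000558). Over all 15 alternatives the change from undifferentiated to differentiated ranged from -2.10 to -0.03 (adjusted p 0.00604 to 1.00) and that from differentiated to dedifferentiated from 1.06 to 2.31 (0.000371 to 0.969). The part of library depth, which moves with the Bc1 share, was not tested.

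All 100 could be fitted when rows with 10 or more counts were kept, 3975 in all. None was called (0 of 3975 in each contrast), and 3, 4 and 3 of the 100 fell under 0.05 unadjusted, in the same order of contrasts. Over all 3975 rows 133, 247 and 159 did. The median log2 change of the 100 was 0.23, -0.38 and -0.11, beside 0.22, -0.40 and -0.21 over all 3975 rows. The difference between these sets was not tested. The medians depend on the scaling: for the 24 rows tested first they were -0.0017, 0.093 and 0.092 with TMM factors, and library size alone moved them by 0.062, -0.17 and -0.11.

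Shares that did not overlap between stages were counted as a description. In differentiated against undifferentiated EVs 10 of the 100 did not overlap, 4 higher and 6 lower, beside 9.46% of the 3975 rows. In dedifferentiated against differentiated EVs 7 did not, 3 higher and 4 lower, beside 10.6%. In dedifferentiated against undifferentiated EVs 12 did not, 5 higher and 7 lower, beside 7.72%. The counts out of 100 lie on both sides of these background shares.

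Only 3 of the 100 names, Lnc012, Bc1 and Miat, have a row among the 17315 rows of the cell mRNA table, which lists 80 (1.10%) of the 7241 lncRNA names and 77 of the 7141 outside the 100. The match is by name, and the other 97 were not analysed here in cells. Cells expressed all 6 Schwann cell markers, summing to 7969 to 21130 counts per 1000000 counts of a library (CPM). Sums of other lists differed between stages. The fibroblast list was nearly all Col1a1 and Col1a2, with Lum at 0 in every library. It summed to 24363 to 29063 CPM in undifferentiated, 11923 to 15585 CPM in differentiated and 15934 to 19351 CPM in dedifferentiated cells. The sum was lowest where Miat and Lnc012 were lowest, but by stage mean only Col1a1 was lowest there. Col1a2 was lowest in dedifferentiated cells (6455 CPM). Pdgfra (0.259, 0.475 and 0.546 CPM) and Dcn (0.0654, 0.475 and 0.363 CPM) were lowest in undifferentiated cells. The neuronal list, nearly all Nefm, summed to 119 to 284, then 496 to 641, then 170 to 207 CPM. The macrophage list summed to 0.322 to 1.64, then 3.64 to 5.09, then 1.88 to 3.39 CPM, with Aif1 at 0. The endothelial list reached at most 1.11 CPM, with Cdh5 at 0. The part of these cell types in the cell results was not tested.

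Miat is a lncRNA known to be retained in the nucleus and to bind splicing factors. In cells it measured 71.1, 51.2 and 45.1 CPM in undifferentiated, 1.18, 1.62 and 1.48 CPM in differentiated and 27.4, 12.9 and 12.9 CPM in dedifferentiated cells. All 3 stages were separate. In bulk samples, fewer cells of a type and less RNA per cell cannot be told apart. On the log2 scale Miat changed by -5.35 (SE 0.37, edgeR adjusted p = 6.66e-07) in differentiation, in a contrast where 59.6% of 10372 genes were called, 31.7% higher and 27.9% lower. It rose by 3.64 (SE 0.38, adjusted p = 2.88e-05) in dedifferentiation, where 46.4% were called, 23.2% in each direction. Dedifferentiated cells stayed below undifferentiated ones, by -1.70 (SE 0.29, adjusted p = 0.00135), where 29.4% were called, 16.1% higher and 13.3% lower.

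EV counts of Miat did not show that fall. They were 2, 10 and 10 in undifferentiated, 6, 14 and 24 in differentiated and 3, 4 and 5 in dedifferentiated EVs. The share averaged 0.0746% ± 0.00370, 0.0762% ± 0.0103 and 0.0587% ± 0.0106 (SD, n = 3 each). Differentiated EVs overlapped both other stages, and undifferentiated EVs (0.0703% to 0.0769%) lay above dedifferentiated ones (0.0465% to 0.0662%). With all 100 fitted, the EV log2 change from undifferentiated to differentiated was 0.23 (SE 0.55, edgeR adjusted p = 1.00). From differentiated to dedifferentiated EVs it was -0.73 (SE 0.61, adjusted p = 0.998). Dedifferentiated against undifferentiated EVs gave -0.50 (SE 0.65, adjusted p = 0.982). The log2 ratio of cell share to EV share was -3.92 ± 0.15, -9.09 ± 0.31 and -5.30 ± 0.53 (SD, n = 3 each). Cell share is of all counts in the cell table and EV share of lncRNA counts alone. The level of the ratio thus does not measure enrichment in EVs. Its differences between stages can also shift if the lncRNA part of all EV reads differs by stage. That part was not measured. Stage accounted for 98.2% of the ratio's sum of squares, with the smallest p that 280 assignments can give (exact permutation p = 0.00357). Over the 33 shared names with enough counts this was 0.118 after Benjamini-Hochberg adjustment and did not pass. A single name at the smallest possible p cannot pass over 33 names, and Miat alone reached that p. The adjusted value therefore cannot decide whether the Miat ratio differed between stages.

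Lnc012, an uncharacterised lncRNA of rank 12, also fell and then rose in cells. It measured 1.05, 1.44 and 1.50 CPM in undifferentiated, 0.147, 0.386 and 0.432 CPM in differentiated and 1.02, 2.29 and 1.35 CPM in dedifferentiated cells. Differentiated cells lay below all others, from only 2, 5 and 7 counts. On the log2 scale it changed by -2.06 (SE 0.50, edgeR adjusted p = 0.00451) and then rose by 2.22 (SE 0.50, adjusted p = 0.00423), and the outer stages differed by 0.16 (SE 0.42, adjusted p = 0.813). In EVs it had 3, 13 and 23, then 7, 21 and 42, then 3, 10 and 10 counts, and its shares overlapped between stages. Its cell to EV ratio gave an exact permutation p of 0.0107 (adjusted 0.118, stage 86.2% of the sum of squares).

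Bc1 went the other way in cells. It measured 4.59, 6.92 and 8.57 CPM in undifferentiated, 13.5, 11.9 and 12.7 CPM in differentiated and 12.6, 20.5 and 16.9 CPM in dedifferentiated cells. Undifferentiated cells lay below all others. Bc1 rose in differentiation by 0.86 on the log2 scale (SE 0.23, edgeR adjusted p = 0.00745), and dedifferentiated cells were above undifferentiated ones by 1.26 (SE 0.23, adjusted p = 0.00207). Dedifferentiated against differentiated cells gave 0.40 (SE 0.22, adjusted p = 0.153). Its cell to EV ratio did not separate the stages (exact permutation p = 0.400).

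**Figure D5:**
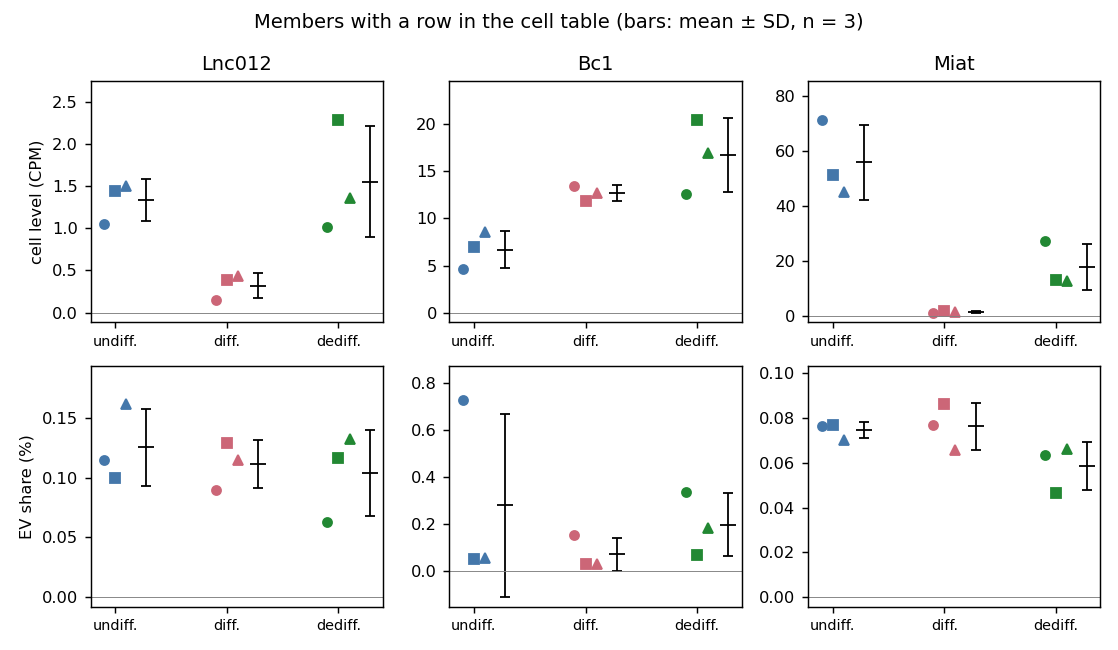
Cell level in CPM (upper row) and share of EV lncRNA counts in % (lower row) of Lnc012, Bc1 and Miat, 1 point per library, coloured by stage and shaped by replicate, with mean ± SD (n = 3) beside them. Miat and Lnc012 are lowest in differentiated cells, Bc1 is lowest in undifferentiated cells, and the EV shares of the stages overlap for Lnc012 and Bc1.

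Cell libraries of replicates 1 and 2 belong to a different sequencing project than replicate 3. Within each project the direction of every called change of these 3 lncRNAs was the same, as the values above show, and the calls held with the project as a covariate. All EV libraries belong to 1 project.

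RefSeq hairpins of miRNAs lie inside 3 of the 100: Mir9-3 and Mir3597-3 in LOC102555346 (Mir9-3hg, rank 11, 135 counts), Mir29b2 and Mir29c in LOC102550527 (rank 58, 87 counts) and Mir675 in LOC102548505 (rank 94, 71 counts). They were placed by position alone, without regard to strand. Mir9-3 (+) and Mir3597-3 (-) lie on opposite strands, so the same transcript cannot give both. Mature sequences of these hairpins are shown with the seed, bases 2 to 8, in capitals, because the seed groups miRNAs by the targets they can pair with.
rno-miR-9a-5p: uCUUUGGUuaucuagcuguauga
rno-miR-9a-3p: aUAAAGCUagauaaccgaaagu
rno-miR-29b-3p: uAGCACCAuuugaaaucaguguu
rno-miR-29c-3p: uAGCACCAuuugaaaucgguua
rno-miR-675-3p: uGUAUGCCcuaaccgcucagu
In GRCr8 these lie at chr1:142849415-142849437 and chr1:142849454-142849475 (+), chr13:109098882-109098904 and chr13:109099412-109099433 (+) and chr1:207161766-207161786 (-). The miR-29 pair shares the seed AGCACCA, and the others each have their own.

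Counts of the 3 hosts, so called by position alone, lay between 71 and 135. Those of the mature miRNAs of hairpins inside them, from separate libraries, lay between 0 and 2107. Mir9-3hg had 4, 18 and 14 counts in undifferentiated, 6, 25 and 42 in differentiated and 6, 14 and 6 in dedifferentiated EVs, with stages that overlapped. miR-9a-5p, known from neural development, measured 1259, 887 and 1081 CPM, then 826, 714 and 1206 CPM, then 1314, 1004 and 987 CPM in the EV miRNA libraries. It ranked 95 of 965 entries with 2107 counts, and its stages overlapped. miR-9a-3p had 179 counts and miR-9b-5p 109. miR-29b-3p, known to target collagen mRNAs, had 11 counts over 9 libraries, miR-29c-3p had 5, and miR-29c-5p was listed at 0 in every library. miR-675-3p, whose hairpin is also known as part of H19, had 2. The same mature miR-9a and miR-29b can come from other loci, so their counts cannot be traced to these hosts, and reads where LOC102548505 and H19 overlap cannot be assigned without the counting rule.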

How the data were processed

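Small EV lncRNA, small EV miRNA and cell mRNA were measured in 9 libraries each. The authors deposited whole-number read counts per lncRNA and per miRNA, and for cells estimated counts per gene, a merged Salmon table per the labels, rounded here to whole numbers. Per the submitters' processing notes, tools included Trim Galore, STAR, HISAT2, SAMtools, Salmon and DESeq2 1.26.0, and which of them made the lncRNA counts, with which build and strand setting, is not given in the sources used here. A directional kit was used on total RNA, per the labels' protocols.

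Rows were ranked by summed counts, and shares are percent of the lncRNA table total, which is a part of each library. Stage contrasts used edgeR 4.0.16 (quasi-likelihood, filterByExpr minimum 10, TMM, all 9 libraries, Benjamini-Hochberg, call at adjusted p under 0.05). Single values used exact permutation over 280 assignments, where 3 against 3 cannot go below 0.1. The ratio of cell to EV share added 0.5 counts to both. The fits and tests were checked on simulated data. P-values measure the spread between these libraries, and intervals (95%) cover counting error only. The 100 members, the lists and the rules were chosen with earlier results of these data known. Named in the text are the 10 largest sums, members on known-lncRNA lists, the 3 smallest p in each contrast, the extremes of spread, members in the cell table, the rows at the threshold and, chosen after their values were seen, the rows of the leading stretch, RGD1561251, the miRNA hosts, the entries RefSeq lists as coding or pseudogene and the listed lncRNAs outside the 100. Alternatives were DESeq2 1.42.0 (test and size factors), library size alone, other filters, the replicate block, the sequencing project, ranking by mean share and leaving out each library.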

Additional observations from a re-analysis of the deposited data

How the results depend on the processing

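Depth limits the EV results: 76 of the 100 lncRNAs had too few counts for the stage fit, and 21 were missing from at least 1 library. Leaving out each library in turn, the number of EV lncRNAs called ranged from 0 to 1 in differentiated against undifferentiated and in dedifferentiated against differentiated EVs, and was 0 in dedifferentiated against undifferentiated EVs. The lncRNA called was Bc1. With p-values adjusted over the rows tested with all libraries (24, or 22 without undifferentiated replicate 2 or 3), an alternative chosen after seeing the data, the range was 0 to 1 and 0 to 2, the added one being LOC102546709 without undifferentiated replicate 1 (log2 change -0.56, edgeR adjusted p = 0.0293) or differentiated replicate 1 (-0.56, adjusted p = 0.0488). The cause was not tested. The between-stage part of the share of the 10 highest ranged from 20.0% to 91.9% over the same sets, and was 15.1% (exact permutation p = 0.579) with ranking by mean share and 14.1% (exact permutation p = 0.675) with each library's own 10 highest rows. The cell calls of Miat, Lnc012 and Bc1 held in all 15 alternatives. Of 168 alternative values that answer a comparison, 160 were judged the same and 8 stronger, and no called value changed direction. P-values were judged by their side of 0.05, and counts of calls and of matched names by how far they moved. The alternative chosen after seeing the data is included.

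Deviations of same-numbered libraries correlated by 0.0065 to 0.387 in EVs over 24 rows and by 0.028 to 0.304 in cells. The correlations were all positive, but not every pair exceeded 0.1 and the labels name nothing shared, so the numbers were not taken to pair the samples. With the replicate block 0 EV lncRNAs were called in each contrast. In cells 3, 2 and 2 of the 3 lncRNAs with a cell row were called, as without the block. Of all 10372 cell genes 59.6%, 46.4% and 29.4% were called without the block. With the mean of each replicate removed, stage accounted for 50.4% of the sum of squares of the share of the 10 highest. Stages were permuted within each replicate number for this value (exact permutation p = 0.250). The block changed no call.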
